A study of Mus musculus with 11 samples.

Results

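Immunoglobulin heavy chain variable (Ighv) segments were described in RNA from mouse germinal center B cells, the B cells that divide and mutate their antibody genes after immunization. Rows of the deposited gene table whose symbol starts with Ighv and whose mean over the 11 libraries was at least 10 normalized read counts were taken, so members were chosen by their measured level over all libraries. This gave 117 segments of 183 Ighv rows, in a table of 48593 genes. The overall level of a segment is therefore a description, while no difference between groups entered the choice. The 66 rows left out included 20 at 0 in every library, and the members held at least 99.36% of all Ighv values in each library. Just below the threshold stood Ighv8-4, Ighv1-49 and Ighv1-41, with means of 8.61, 9.25 and 9.42 normalized counts. Just above it stood Ighv3-4, Ighv1-56 and Ighv8-6, with means of 10.99, 11.3 and 11.4.

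Each B cell joins 1 Ighv segment to a D and a J segment and transcribes the joined exon together with a constant region, so the share of Ighv reads on a segment reflects how many cells carry it and how much heavy chain RNA each makes. The segments fall into families by sequence likeness, and the variable exon encodes the part of the antibody that contacts antigen along with its D and J neighbours. In germinal centers the joined exon is mutated, most often at short hotspots such as AGCT. In bulk RNA, fewer cells carrying a segment and less RNA per cell cannot be told apart.

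The knockouts removed CREBBP or EP300, related lysine acetyltransferases that act as transcriptional coactivators. Crebbp-KO mice were Crebbp fl/fl;Ep300+/+;Cg1cre/+ (3 libraries, CBP-KO_1, CBP-KO_53 and CBP-KO_55), and Ep300-KO mice were Crebbp+/+;Ep300 fl/fl;Cg1cre/+ (3 libraries, p300-KO_18, p300-KO_287 and p300-KO_289). WT mice were Crebbp+/+;Ep300+/+;Cg1cre/+ (5 libraries, WT_4, WT_7, WT_41, WT_46 and WT_288). All mice thus carried the Cg1-Cre allele, which is inserted in the Ighg1 constant region locus, on the same chromosome as the Ighv segments, and acts once B cells are activated. All were given sheep red blood cells, and B220+/PNA+/CD95+ spleen cells were taken by flow sorting on day 12. By their labels the WT mice came from Crebbp crosses and no label ties a WT mouse to the Ep300 crosses, so differences of cross or strain, heavy chain alleles included, and loss of Ep300 cannot be told apart. Age, sex, strain and batch are not given in the sources used here, nor is it said that each library was 1 animal.

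Libraries held 53550726 to 132861266 reads on genes. Ep300 fell in Ep300-KO, with 14829, 14796 and 13773 normalized counts in p300-KO_18, p300-KO_287 and p300-KO_289 against 19310 to 22498 in WT (log2 -0.55, adjusted p = 0.00015, limma). Crebbp had 8595, 8606 and 7541 in CBP-KO_1, CBP-KO_53 and CBP-KO_55 against 7984 to 9584 in WT (log2 -0.10, adjusted p = 0.459, limma). These are counts over the whole gene, which do not single out the deleted exons, so for Crebbp they do not check the labels. Summed germinal center B cell markers were 757731 to 842944 normalized counts in Crebbp-KO, 829897 to 875091 in Ep300-KO and 800593 to 872340 in WT, with Bcl6 and S1pr2 present in every library. Of 8 T cell markers, Cd3e, Cd3d, Cd3g, Cd8a and Trbc2 averaged below 10. The library p300-KO_18 held 98751 normalized counts of Xist together with 9852 of 4 Y-linked genes, whereas each other library had either at least 149307 of Xist with at most 11.1 of the Y-linked genes or at least 22498 of the Y-linked genes with at most 117 of Xist. WT_46 stood apart in its Ighv values, as given below, and WT values of sums and distances are also given without it.

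The members lie on chromosome 12 of the mouse genome, build GRCm38, the same build as mm10, between positions 113572927 and 116010093 on the minus strand. By the GENCODE M21 annotation, 99 are V genes and 18 are V pseudogenes, in 15 families, of which family 1 alone holds 63. Annotated exon lengths ran from 345 to 480 bases with a median of 353, so values of different segments can be set side by side with little effect of length, and the same 10 segments led per kilobase. The last 294 bases of the variable exons of 5 segments are shown from GENCODE M21, each as the germline reference on the coding strand and not as read in these mice. Ighv9-3 had the highest mean share. Ighv12-3 was the segment that varied most. Ighv1-42 and Ighv1-19 were higher in both knockouts than in WT. Ighv1-4 led usage in 1 Ep300-KO library. Capitals mark AGCT, which reads the same on both strands.
Ighv9-3 (chr12:114140692-114140985, minus strand): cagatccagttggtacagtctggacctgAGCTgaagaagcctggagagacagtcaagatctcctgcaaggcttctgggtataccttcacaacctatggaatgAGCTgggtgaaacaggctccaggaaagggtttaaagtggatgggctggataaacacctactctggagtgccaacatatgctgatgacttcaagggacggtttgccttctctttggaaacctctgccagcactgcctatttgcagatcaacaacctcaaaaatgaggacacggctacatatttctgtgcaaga
Ighv12-3 (chr12:114366521-114366814, minus strand): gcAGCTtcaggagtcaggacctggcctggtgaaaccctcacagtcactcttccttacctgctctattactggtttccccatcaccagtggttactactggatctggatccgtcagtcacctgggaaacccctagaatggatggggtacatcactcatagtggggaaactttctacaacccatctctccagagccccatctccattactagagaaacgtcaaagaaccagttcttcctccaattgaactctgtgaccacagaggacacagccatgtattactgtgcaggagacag
Ighv1-42 (chr12:114937113-114937406, minus strand): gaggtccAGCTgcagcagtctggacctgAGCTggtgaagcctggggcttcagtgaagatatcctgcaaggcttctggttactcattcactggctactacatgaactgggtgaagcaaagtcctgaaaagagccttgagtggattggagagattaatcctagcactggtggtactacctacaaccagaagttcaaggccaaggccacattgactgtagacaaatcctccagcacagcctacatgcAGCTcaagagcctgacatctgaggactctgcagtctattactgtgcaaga
Ighv1-19 (chr12:114708648-114708941, minus strand): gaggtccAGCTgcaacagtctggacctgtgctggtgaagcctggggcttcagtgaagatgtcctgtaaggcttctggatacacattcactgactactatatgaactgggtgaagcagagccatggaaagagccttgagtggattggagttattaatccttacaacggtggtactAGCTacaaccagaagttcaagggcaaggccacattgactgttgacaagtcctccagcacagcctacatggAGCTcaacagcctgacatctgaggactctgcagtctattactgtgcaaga
Ighv1-4 (chr12:114487136-114487429, minus strand): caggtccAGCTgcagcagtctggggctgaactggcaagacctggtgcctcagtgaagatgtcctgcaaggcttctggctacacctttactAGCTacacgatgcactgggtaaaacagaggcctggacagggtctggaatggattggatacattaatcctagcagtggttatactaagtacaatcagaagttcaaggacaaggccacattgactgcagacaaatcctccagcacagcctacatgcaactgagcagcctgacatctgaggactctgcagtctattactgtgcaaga
At least 1 AGCT was present in 174 of the 181 annotated variable exons examined, or 96.1%. Members held 0 to 7, with a median of 3, and the 5 shown held 1 to 3. The exons of Ighv1-42 and Ighv1-19 were 91.84% identical to each other. The nearest other segment was 96.94% identical to Ighv1-42, 96.03% to Ighv1-19 and 97.7% to Ighv1-4, but 80.72% to Ighv12-3. For 13 members the nearest copy was at least 98% identical, and Ighv1-62-2 and Ighv1-71 had the same exon. Reads of such close copies, or of mutated exons, may be counted under a neighbour or not be counted at all. The value of a single segment is therefore less certain than that of a family.

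Ighv RNA was a small and variable part of each library. Members summed to 35459, 35494 and 32766 normalized counts in CBP-KO_1, CBP-KO_53 and CBP-KO_55. The sums were 42737, 45524 and 39852 in p300-KO_18, p300-KO_287 and p300-KO_289, and 33639, 34752, 33014, 21289 and 32932 in WT_4, WT_7, WT_41, WT_46 and WT_288. All 3 Ep300-KO sums were above every other library, and WT_46 was the lowest by a wide gap. The mean was 34573 ± 1565 in Crebbp-KO, 42704 ± 2836 in Ep300-KO and 31125 ± 5547 in WT (SD, n = 3, 3 and 5), and 33585 ± 840 in WT without WT_46 (n = 4). As a share of all reads on genes, these were 0.0451% in Crebbp-KO, 0.0566% in Ep300-KO and 0.0400% in WT, or 0.0430% without WT_46. In WT_46, macrophage markers summed to 9291 normalized counts, against 3457 to 4928 in the other WT libraries, with Lyz2 at 1014 against 16.4 to 227 and Mpeg1 at 6428 against 2212 to 3646. Their part in its low Ighv values was not tested. The segments received 16213 reads in WT_46 and up to 58738 in p300-KO_18, so the 95% Wilson interval of a leading share was at most 0.394 percentage points to either side. Such intervals cover counting error only, since PCR copies are not independent molecules.

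Other parts of the heavy and light chain transcripts were ordered likewise between Ep300-KO and WT. The constant regions of the heavy chain summed to 491659 to 527865 normalized counts in Crebbp-KO, 555795 to 592791 in Ep300-KO and 361989 to 522004 in WT. Ep300-KO stood above both other groups without overlap, and Crebbp-KO overlapped WT. Per 100 normalized counts of constant region there were 6.66 to 6.80 of Ighv in Crebbp-KO, 7.17 to 7.68 in Ep300-KO and 5.88 to 7.01 in WT. Ep300-KO again lay above WT without overlap. A J segment is part of the same joined exon as the V segment. The 4 Ighj segments summed to 6018 to 6639 in Crebbp-KO, 6732 to 7897 in Ep300-KO and 5105 to 6572 in WT. The ratio of Ighv to Ighj was 5.35 to 5.58 in Crebbp-KO, 5.76 to 6.28 in Ep300-KO and 4.17 to 6.16 in WT, so relative to Ighj the Ep300-KO and WT libraries overlapped. Kappa light chain variable (Igkv) segments summed to 86527 to 91620 in Crebbp-KO, 100733 to 107927 in Ep300-KO and 66313 to 79211 in WT, and here both knockouts lay above WT without overlap. These sums are descriptions and were not tested.

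**Figure D1:**
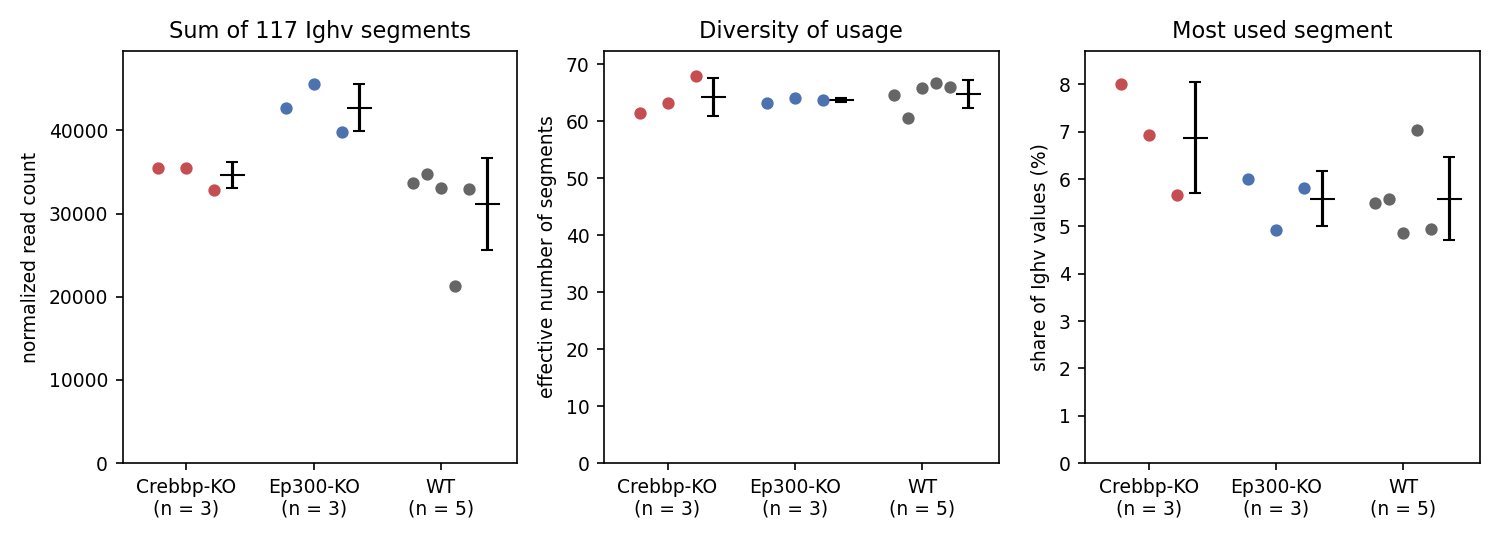
Sum of the 117 Ighv segments (normalized read count), effective number of segments and share of the most used segment (%) in each library of Crebbp-KO, Ep300-KO and WT, with the mean and SD of each group. The 3 Ep300-KO sums of 39852 to 45524 lie above all others, WT_46 is lowest at 21289, and the effective numbers of 60.6 to 67.9 overlap between all groups.

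Usage was spread over many segments in every library. The effective number of segments, the exponential of the Shannon entropy of the shares, counts how many equally used segments would give the same diversity. It was 61.5, 63.1 and 67.9 in CBP-KO_1, CBP-KO_53 and CBP-KO_55. It was 63.3, 64.1 and 63.8 in p300-KO_18, p300-KO_287 and p300-KO_289, and 64.7, 60.6, 65.9, 66.6 and 65.9 in WT_4, WT_7, WT_41, WT_46 and WT_288. The group means of 64.2 ± 3.32 in Crebbp-KO, 63.7 ± 0.416 in Ep300-KO and 64.7 ± 2.43 in WT (SD, n = 3, 3 and 5) differed by less than the SD within Crebbp-KO or WT, and the groups overlapped. With every library thinned to 16213 Ighv reads, the values ran from 60.5 in WT_7 to 67.8 in CBP-KO_55. Between 114 and 117 members had a read in each library, and 32 to 38 reached a share of 1%. The 15 to 19 most used segments together made up 50% of the values, and the 10 most used made up 33.4% to 39.7%. Pseudogenes, which cannot encode a working heavy chain, held 1.72% to 3.38%, and Ighv1-14 was the most abundant of them, with a mean share of 0.795%.

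The segment used most was not the same in every library. Ighv9-3 led in CBP-KO_55 with 5.67%, in p300-KO_18 with 6.01%, in p300-KO_287 with 4.94%, in WT_4 with 5.502% and in WT_288 with 4.96%. Ighv1-80 led in CBP-KO_1 with 8.02%, in WT_7 with 5.59% and in WT_41 with 4.86%. The other 3 libraries had leaders of their own, Ighv12-3 in CBP-KO_53 with 6.94%, Ighv1-4 in p300-KO_289 with 5.82% and Ighv1-9 in WT_46 with 7.04%. The share of the leading segment averaged 6.88 ± 1.17% in Crebbp-KO, 5.59 ± 0.573% in Ep300-KO and 5.59 ± 0.871% in WT (SD, n = 3, 3 and 5), and the groups overlapped.

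Over all libraries Ighv9-3 had the highest mean share, 4.81%, and the steadiest among the leaders, from 3.59% in CBP-KO_1 to 6.01% in p300-KO_18. Ighv1-9 followed with 3.92%, Ighv1-80 with 3.45%, Ighv3-6 with 3.37%, Ighv1-81 with 3.36%, Ighv1-64 with 3.30% and Ighv1-26 with 3.22%. The top 10 closed with Ighv1-82 at 2.68%, Ighv1-4 at 2.66% and Ighv5-6 at 2.41%. Of these 10, 7 belong to family 1. At the other end, 22 members had a mean share under 0.1%. Ighv1-80 showed how far a common segment could move within a group. It had 2843, 748 and 417 normalized counts in CBP-KO_1, CBP-KO_53 and CBP-KO_55, against 858, 1942, 1605, 483 and 1219 in WT_4, WT_7, WT_41, WT_46 and WT_288. The highest and the lowest of these 8 libraries were both Crebbp-KO. Of the 117 members, 107 varied by over 2-fold in share between their highest and lowest library, 80 by over 3-fold and 12 by over 10-fold.

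**Figure D2:**
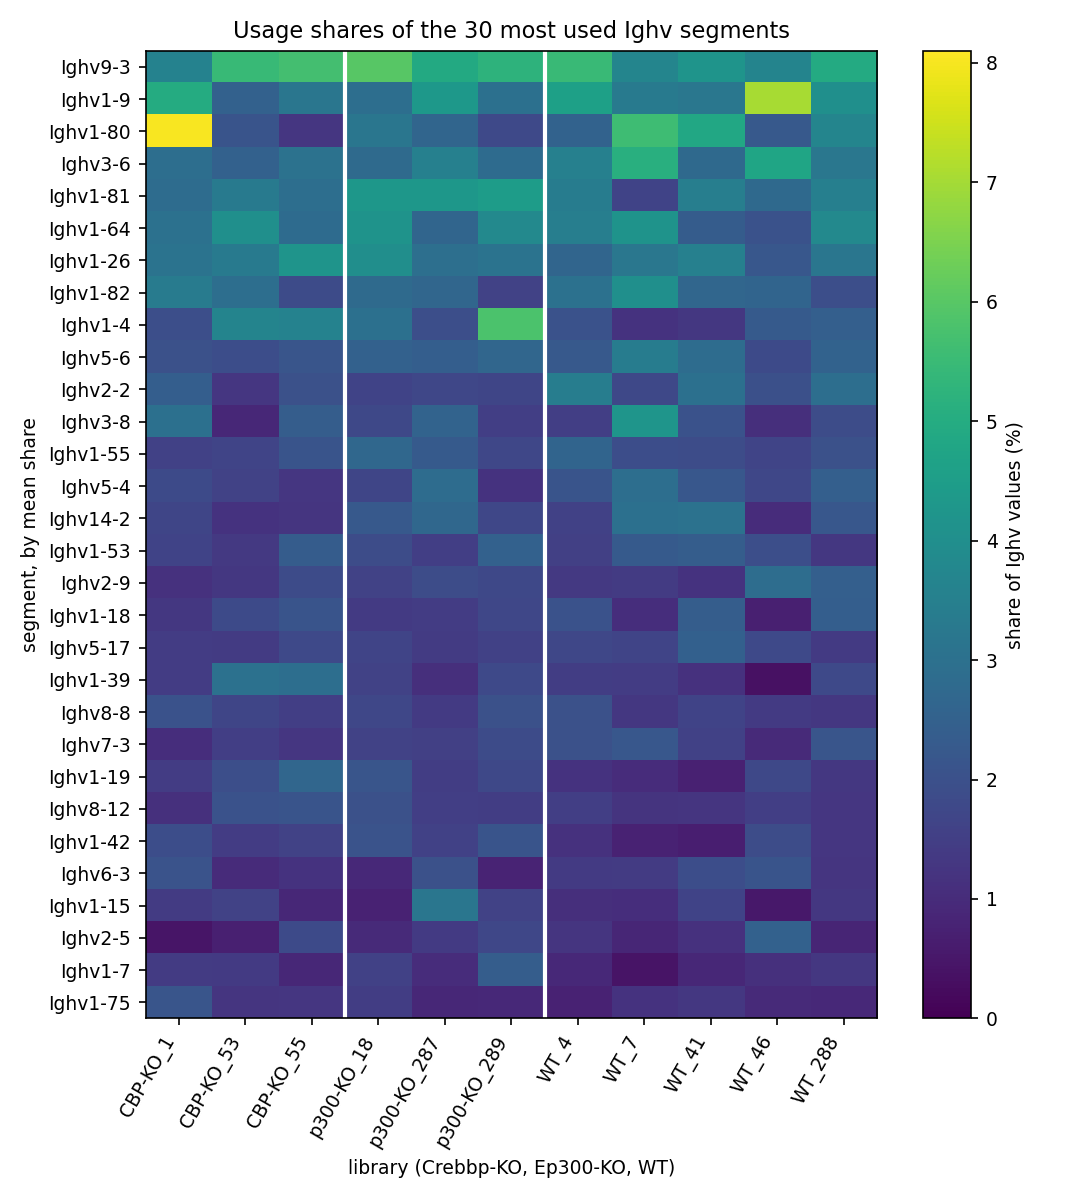
Usage share (% of the Ighv values of a library, colour) of the 30 segments with the highest mean share (rows) in the 11 libraries (columns), with white lines between Crebbp-KO, Ep300-KO and WT. Ighv9-3 is high in all groups, while Ighv1-80 in CBP-KO_1 at 8.02% and Ighv1-9 in WT_46 at 7.04% stand out in single libraries.

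Distances between whole usage profiles overlapped widely within and between groups. The distance between 2 libraries, the sum of the absolute differences in share divided by 2, was 16.5% to 23.5% within Crebbp-KO, 13.4% to 19.5% within Ep300-KO and 14.2% to 27.2% within WT. Between groups it was 16.6% to 27.6% for Crebbp-KO with WT, 14.2% to 26.3% for Ep300-KO with WT and 14.01% to 22.2% for Crebbp-KO with Ep300-KO. WT_46 was the most distant library, with a median of 25.2% to the others, against 16.7% to 21.1% for the remaining 10. Without it the distances were 14.2% to 20.2% within WT, 16.6% to 26.3% for Crebbp-KO with WT and 14.2% to 23.6% for Ep300-KO with WT. Their means were 16.9%, 20.0% and 18.1%, over 6, 12 and 12 pairs. Both knockouts then reached larger distances to WT than WT libraries did among themselves. Distances within Crebbp-KO, with a median of 21.7% and a highest of 23.5%, did so too, while those within Ep300-KO, at most 19.5%, did not. WT_46 had the lowest normalized value of all libraries for 52 members and the highest share for 31.

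Ighv12-3 was the only member whose highest library was over 10 times its median. It had 103, 2464 and 91.7 normalized counts in CBP-KO_1, CBP-KO_53 and CBP-KO_55, and 94.6, 479 and 114 in p300-KO_18, p300-KO_287 and p300-KO_289. WT_4, WT_7, WT_41, WT_46 and WT_288 had 45.5, 80.0, 63.7, 78.8 and 72.6. CBP-KO_53 was 26.9 times the median of all libraries, p300-KO_287 was next, and every knockout library was above every WT library in normalized counts. The share in CBP-KO_53 was 6.94% (95% Wilson interval 6.68% to 7.21%, 2505 reads) and in p300-KO_287 it was 1.05% (0.973% to 1.14%, 600 reads). The other 4 knockout libraries held 0.221% to 0.289%, against 0.135% to 0.370% in WT. On this scale the groups overlapped, since WT_46, with its low Ighv sum, had the third highest share of all at 0.370%. The difference did not pass the test in either knockout, with log2 2.08 and adjusted p = 0.181 in Crebbp-KO against WT and log2 1.36 and adjusted p = 0.369 in Ep300-KO against WT (limma). In Crebbp-KO against WT, edgeR called it at adjusted p = 0.027, with the high values in 1 library of 3.

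In mouse B-1 cells, a self-renewing B cell type, Ighv12-3 is known as part of antibodies to phosphatidylcholine, with the light chain segment Igkv4-91 as a partner. Igkv4-91 was looked up after the values of Ighv12-3 were seen. It made up 0.553%, 4.43% and 0.680% of Igkv values in CBP-KO_1, CBP-KO_53 and CBP-KO_55, and 0.961%, 0.912% and 1.09% in p300-KO_18, p300-KO_287 and p300-KO_289. WT_4, WT_7, WT_41, WT_46 and WT_288 had 0.912%, 0.493%, 0.375%, 0.491% and 0.728%. Both segments were thus highest in CBP-KO_53, where Igkv4-91 ranked 5 among Igkv segments, against 29 to 57 elsewhere. In p300-KO_287, the other library high in Ighv12-3, Igkv4-91 was level with the remaining Ep300-KO libraries. Whether the same cells carried both was not measured.

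**Figure D3:**
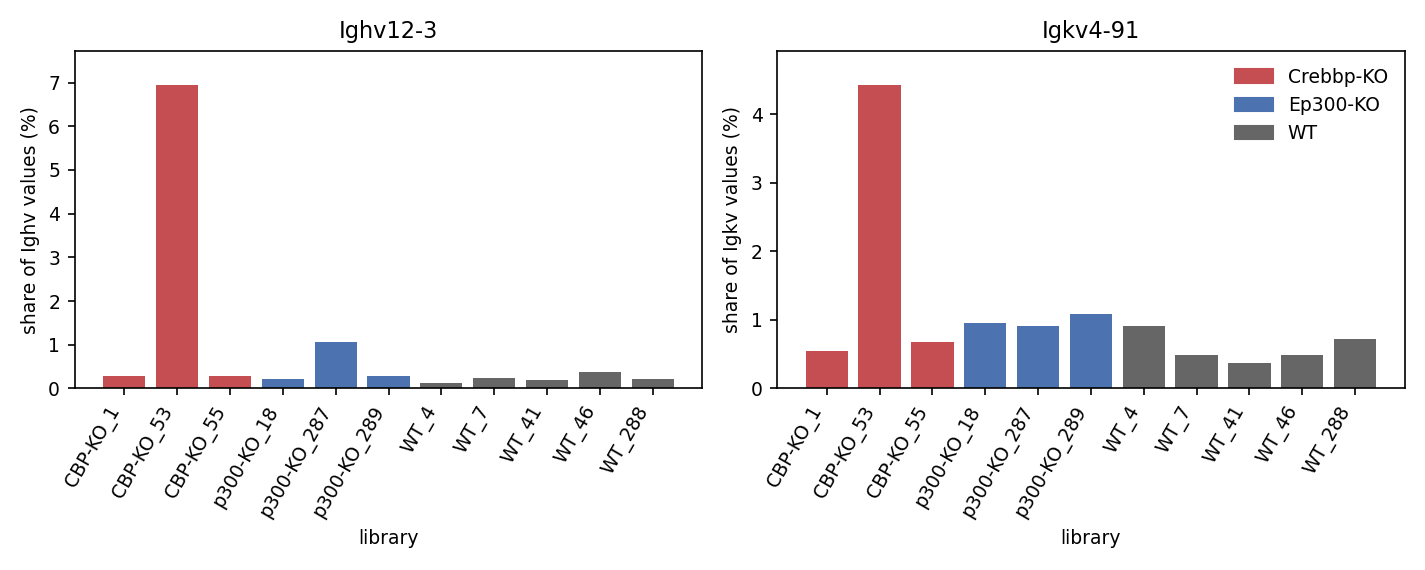
Ighv12-3 as a share of Ighv values (left, %) and Igkv4-91 as a share of Igkv values (right, %) in each library, coloured by group. Both are highest in CBP-KO_53, at 6.94% and 4.43%, and p300-KO_287 is raised to 1.05% in Ighv12-3 only.

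Among the families, family 1 made up most of the usage. Its share was 60.3%, 55.3% and 56.3% in CBP-KO_1, CBP-KO_53 and CBP-KO_55, and 58.3%, 54.8% and 59.1% in p300-KO_18, p300-KO_287 and p300-KO_289. WT_4, WT_7, WT_41, WT_46 and WT_288 had 55.1%, 51.6%, 53.2%, 48.9% and 54.7%. Crebbp-KO lay just above WT without overlap, and Ep300-KO overlapped WT through p300-KO_287. The means were 57.3 ± 2.65% in Crebbp-KO, 57.4 ± 2.27% in Ep300-KO and 52.7 ± 2.54% in WT (SD, n = 3, 3 and 5). Family 5 held 8.88 ± 0.464% in Crebbp-KO, 8.95 ± 0.610% in Ep300-KO and 10.3 ± 0.928% in WT, and family 2 held 6.03 ± 1.798%, 6.37 ± 0.747% and 8.04 ± 1.31% in the same groups, with overlap. Family 14 held 2.91 ± 0.439% in Crebbp-KO, 4.08 ± 0.828% in Ep300-KO and 4.18 ± 0.799% in WT. Families 3, 8 and 9 each averaged 3.56% to 6.82% in every group, and the 8 remaining families averaged at most 3.12% in any group.

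Segments near the D segments made up less of the usage in both knockouts than in WT. All members of families 2 and 5 are among the near ones. The 39 members nearest the D segments, from Ighv5-1 at 113572927 up to Ighv9-4 at 114299961, were grouped after the values were seen, so no test was made. They held 27.4%, 28.6% and 33.0% of Ighv values in CBP-KO_1, CBP-KO_53 and CBP-KO_55. The shares were 32.5%, 33.3% and 31.5% in p300-KO_18, p300-KO_287 and p300-KO_289, and 35.1%, 36.5%, 35.4%, 37.6% and 35.9% in WT_4, WT_7, WT_41, WT_46 and WT_288. All 6 knockout libraries were below all 5 WT libraries. The means were 29.7 ± 2.97% in Crebbp-KO, 32.4 ± 0.898% in Ep300-KO and 36.1 ± 0.975% in WT (SD, n = 3, 3 and 5). The 39 members in the middle of the locus held 35.0 ± 2.82% in Crebbp-KO, 33.1 ± 2.52% in Ep300-KO and 30.5 ± 1.75% in WT, with overlap. The 39 farthest held 35.3 ± 4.30% in Crebbp-KO, 34.5 ± 2.30% in Ep300-KO and 33.4 ± 2.30% in WT, also with overlap. A lower share is not a lower level. In Ep300-KO against WT, 29 of the 39 nearest members had a log2 fold change above 0, with a median of 0.29, against a median of 0.54 in the middle and 0.54 among the farthest. In Crebbp-KO against WT it was 17 of 39, with medians of -0.10, 0.32 and 0.25 from near to far. The groups stayed apart for the nearest 29 members, at 17.9% to 21.7% in Crebbp-KO, 20.1% to 21.6% in Ep300-KO and 22.7% to 26.2% in WT. For the nearest 58 members, Ep300-KO at 48.9% to 55.6% overlapped WT at 53.9% to 60.9%, while Crebbp-KO at 48.7% to 52.0% did not. With Ighv12-3 left out the shares of the nearest 39 were 27.4% to 33.1% in Crebbp-KO, 31.6% to 33.6% in Ep300-KO and 35.2% to 37.7% in WT.

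**Figure D4:**
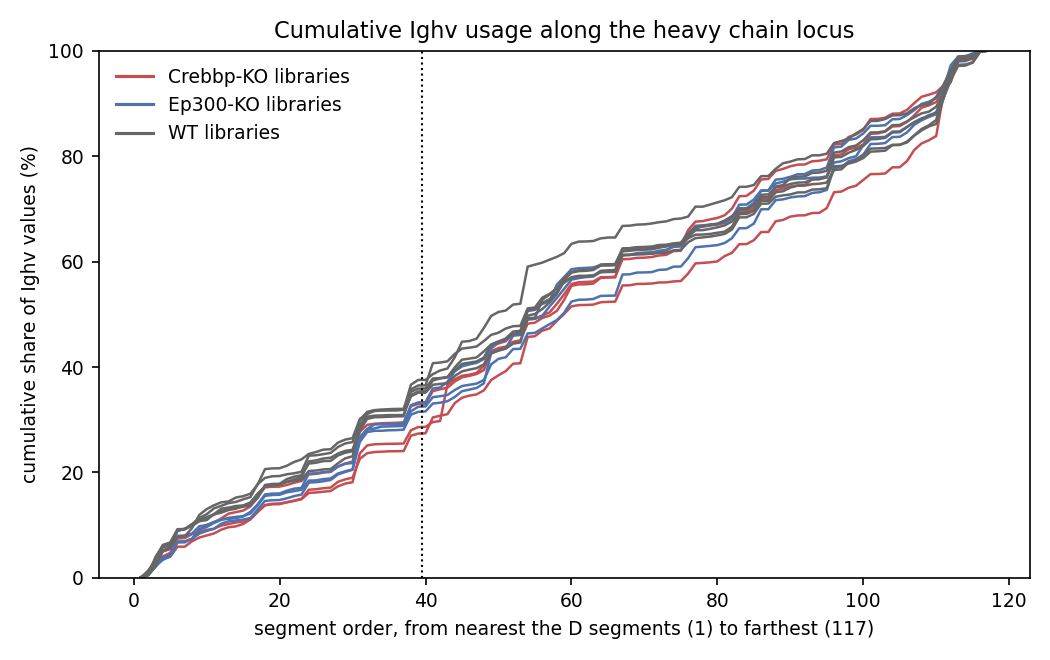
Cumulative share of Ighv values (%) over the 117 members in order along the heavy chain locus, from the segment nearest the D segments (1) to the farthest (117), with 1 line per library coloured by group and a dotted line after member 39. At the dotted line the knockout libraries have reached 27.4% to 33.3% and the WT libraries 35.1% to 37.6%.

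In Ep300-KO against WT, single segments were tested with limma on log2(value + 1), with Benjamini-Hochberg adjustment over the 16515 genes with a mean of at least 10. Of the 117 members, 9 rose and 0 fell, or 7.69%. Of all genes tested 11.9% were called, 5.84% higher and 6.09% lower, so the share of calls was near that of all genes. None was lower at an unadjusted p below 0.05 either, and 28 were higher at that level, or 23.9% against 25.7% of all genes in either direction. edgeR called 12 members (10.3% against 11.9% of all genes) and DESeq2 14 (12.4% against 16.7%). The median log2 fold change of the members was 0.39, against -0.0052 over all genes tested, and 89 members were above 0, or 76.1% against 49% of all genes. Groups did not overlap for 16 members that were higher and 1 that was lower, or 13.7% and 0.855%, against 9.63% and 9.4% of all genes.

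Ighv1-42 and Ighv1-19, both of family 1, had the lowest adjusted p. Ighv1-42 had 883, 708 and 842 normalized counts in p300-KO_18, p300-KO_287 and p300-KO_289, against 387, 270, 227, 399 and 420 in WT_4, WT_7, WT_41, WT_46 and WT_288. The groups were far apart, with log2 1.28 ± 0.197 (SE) and adjusted p = 0.00143 (limma). Ighv1-19 had 908, 674 and 695 in the 3 Ep300-KO libraries in the same order, against 395, 361, 242, 376 and 430 in WT, with log2 1.08 ± 0.201 and adjusted p = 0.00447 (limma). Ighv1-81, near the far end of the locus, had 1838, 1954 and 1790 in Ep300-KO, against 1149, 561, 1149, 587 and 1146 in WT, with log2 1.09 ± 0.237 and adjusted p = 0.0101 (limma). WT libraries fell into a higher trio and a lower pair, WT_7 and WT_46, and all stood below Ep300-KO. These 3 segments kept their calls when any 1 of the 11 libraries was left out.

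For the other 6, the call depended on single libraries. Ighv1-4 averaged 1494 ± 741 in Ep300-KO and 565 ± 175 in WT (log2 1.34, adjusted p = 0.0149, limma), and without p300-KO_289, where it reached 2320, the adjusted p was 0.076. Ighv1-7, whose exon is 97.7% identical to that of Ighv1-4, averaged 696 ± 244 in Ep300-KO and 286.8 ± 105 in WT (log2 1.30, adjusted p = 0.0181, limma), and it was also highest in p300-KO_289. Ighv1-7 lost its call without p300-KO_18 (0.0586) or p300-KO_289 (0.0934). Ighv1-54 averaged 399 ± 45.3 in Ep300-KO and 179 ± 73.1 in WT (log2 1.27, adjusted p = 0.0241, limma), and leaving out any Ep300-KO library gave 0.0621 to 0.09. Ighv1-31, the scarcest of them, averaged 113 ± 45.99 in Ep300-KO and 42.8 ± 15.2 in WT (log2 1.36, adjusted p = 0.0327, limma), and lost its call without p300-KO_18, p300-KO_289, WT_4 or WT_7, at up to 0.134. Outside family 1, Ighv9-3 averaged 2301 ± 245 in Ep300-KO and 1385 ± 405 in WT (log2 0.78, adjusted p = 0.0432, limma), and lost its call when any of 7 libraries was left out, at up to 0.145. Ighv8-12, named after its values were seen, averaged 711 ± 141 in Ep300-KO and 414 ± 64.3 in WT (log2 0.77, adjusted p = 0.0269, limma), and lost its call without p300-KO_18 (0.122) or p300-KO_287 (0.072).

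With p300-KO_18 and WT_46 both left out, 5 members were called, namely Ighv1-42, Ighv1-19, Ighv1-81, Ighv1-54 and Ighv1-15. The share of all genes called in that fit is not given here, so this count is not a result about Ighv alone. With each member divided by the Ighv sum of its library, 0 were called. The adjusted p of the 9 then ran from 0.0518 for Ighv1-54 to 0.366 for Ighv8-12 (limma). That fit takes out the Ighv sum of each library, which was itself higher in Ep300-KO. The called family 1 segments had a median identity of 85.7% over 21 pairs. It was 85.4% over all 1176 pairs of family 1 members that are not pseudogenes. Single pairs of called segments were closer, with Ighv1-4 and Ighv1-7 97.7% identical. Ighv1-19, Ighv1-42 and Ighv1-31 were 90.82% to 91.84% identical to each other. Whether such segments shared reads was not tested.

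**Figure D5:**
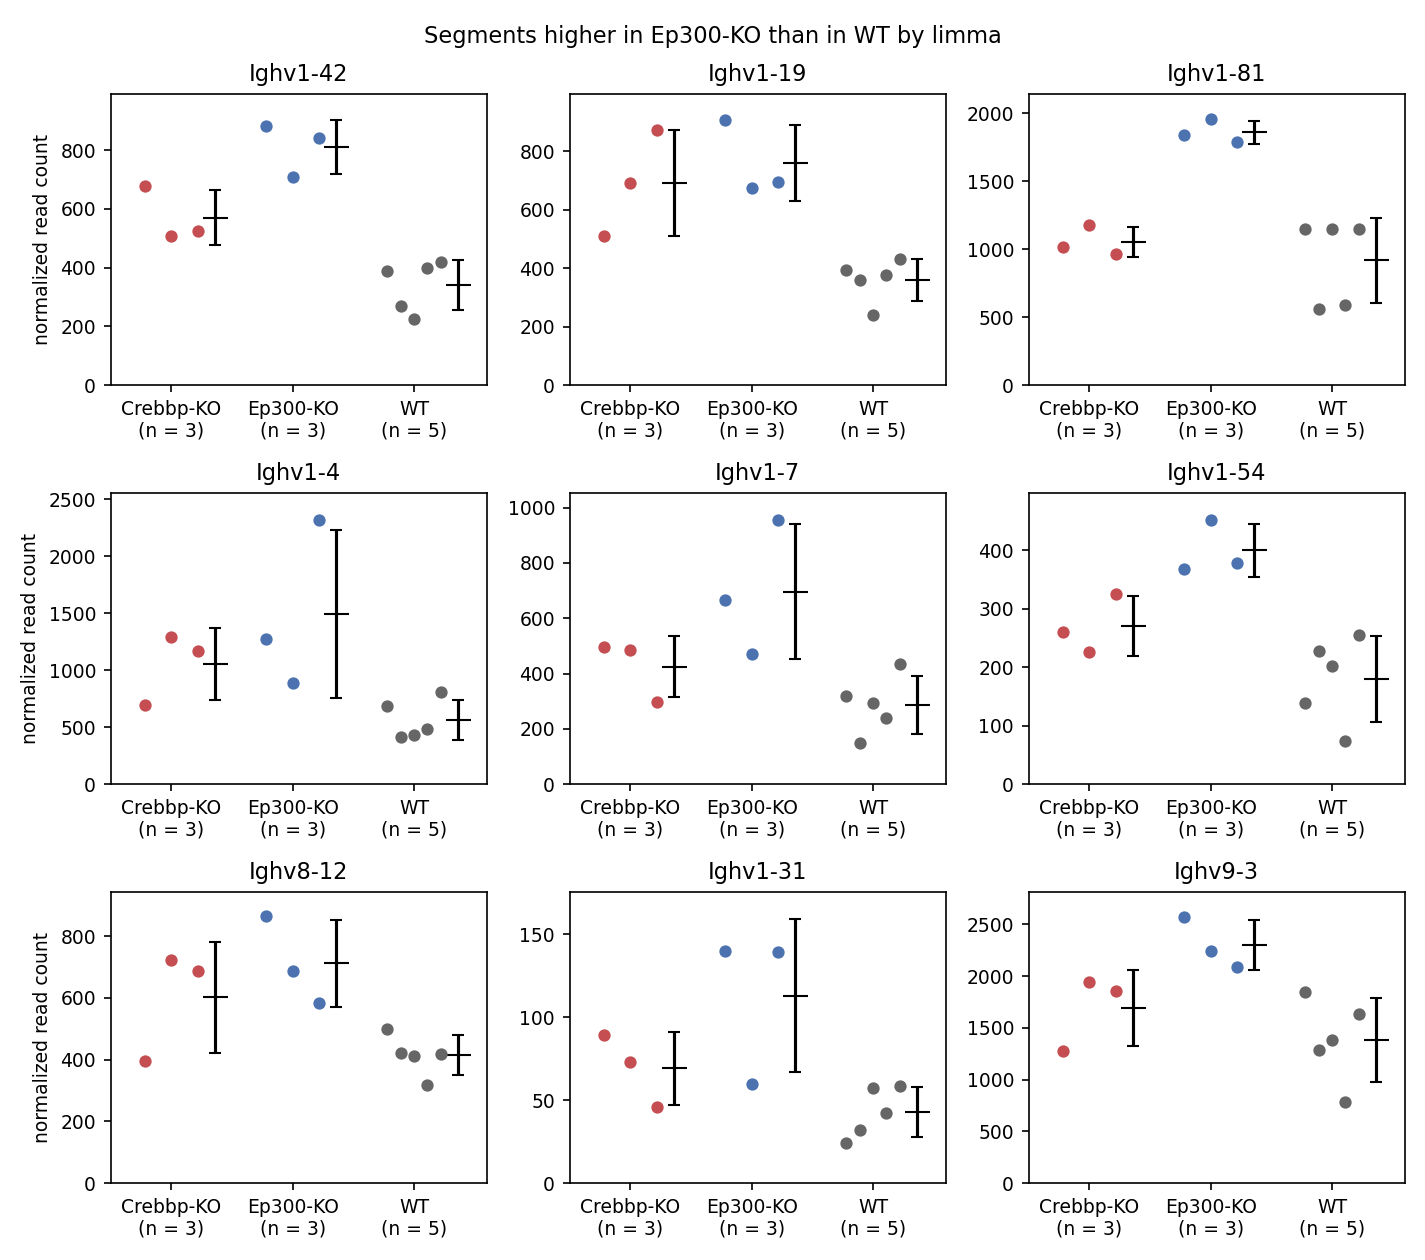
Normalized read count of the 9 segments higher in Ep300-KO than in WT by limma, with 1 point per library of Crebbp-KO, Ep300-KO and WT and the mean and SD of each group. The 3 Ep300-KO libraries lie above all 5 WT libraries in each panel, and Ighv1-81 has Ep300-KO libraries at 1790 to 1954 against at most 1149 in WT.

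In Crebbp-KO against WT, 2 members rose and 0 fell, or 1.71%. Of all genes tested 8.36% were called, 3.48% higher and 4.88% lower. At an unadjusted p below 0.05, 10 were higher and 3 lower, or 11.1% against 22.6% of all genes. edgeR called 3 members (2.56% against 8.01% of all genes) and DESeq2 6 (5.17% against 12.4%). The median log2 fold change of the members was 0.18, against 0.0065 over all genes, and 75 members were above 0, or 64.1% against 51.2% of all genes. Groups did not overlap for 3 members that were higher (Ighv1-19, Ighv1-42 and Ighv12-3) and 1 that was lower (Ighv2-6), or 2.56% and 0.855%, against 8.43% and 8.47% of all genes. Ighv1-19 had 509, 691 and 872 normalized counts in CBP-KO_1, CBP-KO_53 and CBP-KO_55, against 242 to 430 in the 5 WT libraries, with log2 0.93 ± 0.201 (SE) and adjusted p = 0.0135 (limma). It lost its call without CBP-KO_53 (0.0597) or CBP-KO_55 (0.0822). Ighv1-42 had 678, 508 and 524 in the same Crebbp-KO libraries, against 227 to 420 in WT, with log2 0.77 ± 0.197 and adjusted p = 0.0302 (limma). It lost its call without any Crebbp-KO library or WT_7, at 0.0627 to 0.114. Both segments were also called in Ep300-KO, but both comparisons use the same 5 WT libraries.

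Without WT_46, 5 members were called in Crebbp-KO against WT, with Ighv2-6, Ighv7-3 and Ighv1-86 lower beside the 2 that were higher, and without CBP-KO_53 0 were. Over all genes, the fits with 1 library left out called 642 to 1541, against 1380 with all libraries. With each member divided by the Ighv sum of its library, neither Ighv1-19 (adjusted p = 0.0884) nor Ighv1-42 (0.206) was called by limma. In that fit Ighv2-6 was lower, at log2 -1.21 and adjusted p = 0.0295. Its normalized counts were 80.9, 138 and 146 in CBP-KO_1, CBP-KO_53 and CBP-KO_55, against 189, 395, 371, 155 and 198 in WT_4, WT_7, WT_41, WT_46 and WT_288, and on these values the log2 was -1.04 with adjusted p = 0.0792 (limma). The groups did not overlap, with CBP-KO_55 and WT_46 the nearest libraries.

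In Crebbp-KO against Ep300-KO, 0 members were called by limma, against 9.42% of all genes tested, 4.79% higher and 4.63% lower. At an unadjusted p below 0.05, 11 were lower and 0 higher in Crebbp-KO, or 9.4% against 25% of all genes. edgeR called 0 members against 9.23% of all genes, and DESeq2 called 4 (3.77% against 15.1%). Without WT_46 limma called 5, all lower in Crebbp-KO (Ighv1-55, Ighv1-81, Ighv14-2, Ighv5-6 and Ighv7-3). Over all genes, the fits with 1 library left out called 745 to 1954, against 1556 with all libraries. The median log2 fold change was -0.25, against -0.0033 over all genes, and 30 members were above 0, or 25.6% against 49.4% of all genes. Groups did not overlap for 17 members that were lower and 0 that were higher, or 14.5% for those lower, against 15.6% of all genes lower and 15.5% higher. Ighv1-81 averaged 1052 ± 112 in Crebbp-KO and 1861 ± 84.6 in Ep300-KO, without overlap (log2 -0.83, adjusted p = 0.0688, limma, and 0.0352 without WT_46). Ighv5-6 averaged 694 ± 16.0 in Crebbp-KO and 1081 ± 19.1 in Ep300-KO, with little spread in either (log2 -0.64, adjusted p = 0.189, limma, and 0.01 without WT_46).

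The related list covered other immunoglobulin genes, the machinery of V(D)J joining and somatic mutation, and transcription factors of the heavy chain locus. Of its 37 tested genes, 6 rose and 6 fell in Ep300-KO against WT, 3 rose and 3 fell in Crebbp-KO against WT, and 7 were higher and 7 lower in Crebbp-KO than in Ep300-KO (limma). Of all genes tested, 11.9%, 8.36% and 9.42% were called in the same comparisons, smaller shares than in this list. The list was chosen with earlier results of these data known. In Ep300-KO the light chain constant genes Iglc1 (17008 ± 915 in Ep300-KO, 10844 ± 742 in WT, log2 0.65), Iglc2 (log2 1.02) and Igkc (log2 0.38) rose, with adjusted p of 8.46e-05, 0.000184 and 0.00141 by limma. Ighe, the constant region of IgE, averaged 4086 ± 1125 in Ep300-KO and 987 ± 533 in WT (log2 2.15, adjusted p = 0.00261, limma). The transcription factors Ets1 and Tcf3 fell by 0.45 and 0.35 on the log2 scale, with adjusted p of 0.000451 and 0.000844 (limma). In Crebbp-KO, Iglc1 and Iglc2 rose by log2 0.40 and 0.50, and Iglc3 and the receptor subunit Cd79a fell by 0.27 and 0.33 (adjusted p 0.00295, 0.0191, 0.0147 and 0.021, limma). Rag1, which cuts DNA in V(D)J joining, averaged 72.7 ± 7.94 normalized counts in Crebbp-KO, 6.72 ± 3.69 in Ep300-KO and 26.5 ± 10.1 in WT. It was called in Crebbp-KO against Ep300-KO (log2 3.40, adjusted p = 0.000739, limma), and its call in Crebbp-KO against WT (adjusted p = 0.0397) was kept in 4 of 11 fits that each left out 1 library. Rag1 was also called lower in Ep300-KO against WT (log2 -1.90, adjusted p = 0.00963, limma), in all 11 such fits, at a low count in Ep300-KO.

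Plasma cell markers, from cells that make much immunoglobulin RNA, did not all move one way. Summed over 10 markers they were 110228 to 126312 normalized counts in Crebbp-KO, 122379 to 135062 in Ep300-KO and 94680 to 118959 in WT. Of the 9 tested, 4 rose and 0 fell in Ep300-KO against WT, and 1 rose and 1 fell in Crebbp-KO against WT. Sdc1 had 426, 332 and 274 normalized counts in p300-KO_18, p300-KO_287 and p300-KO_289, against 68.3 to 140 in WT. Creb3l2 had 566, 498 and 365 in the same libraries, against 115 to 165 in WT. Xbp1 had 17255, 17045 and 16255, against 11261 to 13410 in WT. Slamf7 had 17216, 19697 and 19707 in the same Ep300-KO libraries, against 20229 to 22494 in WT, without overlap in the other direction (log2 -0.18, adjusted p = 0.0769, limma). Tnfrsf17 averaged below 10, and no marker of any list was at 0 in every library. Naive or memory B cell markers summed to 17187 to 26471 in Crebbp-KO, 31739 to 38943 in Ep300-KO and 19100 to 35253 in WT, T cell markers to 140 to 212, 206 to 223 and 218 to 337, and macrophage markers to 1967 to 2870, 2397 to 3171 and 3457 to 9291 in the same groups, or 3457 to 4928 in WT without WT_46. Their part in the Ighv values was not tested.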

How the data were processed

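RNA sequencing of sorted germinal center B cells was read from 1 deposited table with 1 column per library: 3 Crebbp-KO, 3 Ep300-KO and 5 WT, grouped by the sample labels. Per the labels' protocols, total RNA was made into TruSeq RNA v2 libraries, which do not keep strand. The submitters' processing notes name CASAVA 1.8, HISAT2, featureCounts, DESeq2 and mm10, with no settings. The deposited signal values are counts of reads per gene after division by the size factors of the authors. All values (100%) were whole multiples of 1 step per library within a tolerance of 0.000001, so whole reads were recovered for depth, intervals and count models.

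A mean of 10 or more was reached by 16515 of 48593 genes, which entered limma 3.58.1 (variance trend, two-sided) on log2(value + 1), with 1 mean per group, no covariate and Benjamini-Hochberg adjusted p below 0.05. The procedure was tested on simulated data with the same spread set for every gene. The Ighv segments differ in spread between libraries, so that test does not check their calls. Each p-value sets a difference of group means against the spread between these libraries, which may be technical. A usage share is a segment's value divided by the sum of the 117 members in its library. Sums, shares and diversity have no test. Positions, exons and gene types came from GENCODE M21, matched by symbol for all 183 rows. Named segments were the 10 with the highest mean share, the leader of each library, up to 8 called per direction and comparison, those whose highest library was over 10 times their median, and the neighbours of the threshold. Members and lists were chosen with earlier results of these data known. Alternatives changed the pseudocount, filter, normalization, scaling, libraries and test, with edgeR 4.0.16 and with DESeq2 1.42.0 as count models; the splits by position and their alternatives were added after the data were seen. Software was R 4.3.3, Python 3.11.15, pandas 2.3.3, scipy 1.17.1 and matplotlib 3.10.9. How featureCounts treated reads that match several segments is not given in the sources used here. Some genes of the lists are not reported here by name.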

Additional observations from a re-analysis of the deposited data

Results flagged for a closer look

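Of 56 sets of 5 WT values examined, 3 had a library that stood far from the others. Chance alone gives this for about 1 set in 20, so 3 of 56 is near the number that chance gives. All 3 were WT_46. Its Ighv sum was 21289 normalized counts, against 32932 to 34752 in the other WT libraries. Its Ighv share of the library, the same quantity on another scale, was 0.0279%, against 0.0423% to 0.0446%. Its Ighg1 value, the constant region of IgG1, was 80818 normalized counts, against 171787 to 191518. Macrophage markers were highest in the same library, at a sum of 9291 normalized counts against 3457 to 4928 in the other WT libraries, and their part was not tested. The effective number of segments in WT_46, 66.6, did not stand apart.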

How the results depend on the processing

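No called member reversed its direction, and the shares of the 39 members nearest the D segments, of Ighv RNA in the library and of the leading segment moved by less than the spread between replicates. Members called in Crebbp-KO against WT (2) numbered 6 with DESeq2, 1 with only the 2 groups fitted, 5 without WT_46 and p300-KO_18, 1 on usage shares, and 0 to 5 with each library left out. The 1 on usage shares was Ighv2-6, lower in Crebbp-KO, and neither of the 2 higher members was called there. Those in Ep300-KO against WT (9) numbered 14 with DESeq2, 5 without WT_46 and p300-KO_18, 0 on usage shares, and 4 to 12 with each library left out. Those in Crebbp-KO against Ep300-KO (0) numbered 4 with DESeq2, 4 with only the 2 groups fitted, 2 without WT_46 and p300-KO_18, and 0 to 5 with each library left out. Over all genes, leaving out each library gave 642 to 1541 calls in Crebbp-KO against WT (1380), 1169 to 2027 in Ep300-KO against WT (1970) and 745 to 1954 in Crebbp-KO against Ep300-KO (1556), where DESeq2 gave 2350. The total called thus changed between settings too, so the member counts above are not a result about Ighv alone. The effective number of segments was 59.96 in Crebbp-KO, 59.49 in Ep300-KO and 60.08 in WT over members with a mean of at least 50. It was 60.3, 59.7 and 60.3 in the same groups without pseudogenes, and 45.3, 46.6 and 47.1 as the inverse Simpson index. Over every Ighv row it was 65.0 in Ep300-KO. It ran from 62.3 to 65.5 in Crebbp-KO, 63.5 to 63.9 in Ep300-KO and 64.3 to 65.8 in WT with each library left out. For the members called, 186 values under these alternatives stayed past the threshold and 45 did not. No paired analysis was possible because no replicate number occurs in more than 1 group.

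Close copies and mutated exons limit what a single segment's value means. Ighv reads were 16213 in WT_46, the lowest depth. With 3 libraries in each knockout, 1 library can set a mean, as CBP-KO_53 does for Ighv12-3. The cause of the changes between settings was not tested.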
